A study of Oryza sativa with 6 samples.

Results

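Genes of DNA replication and the cell cycle were followed in the growing grain (caryopsis) of rice, 7 days after flowering. Of 17905 genes that had at least 1 probe set assigned to them alone, 59 carry a symbol or synonym of the MCM, RFC, RPA, ORC, PCNA, CDK, cyclin (CYC) or H2B families in RefSeq and are described here, each by its brightest probe set. They comprise 26 replication genes, 28 genes of cyclins and cyclin-dependent kinases (CDKs) and 5 genes of histone H2B. A further 10 genes of these names had no such probe set (CDKC-2, CDKF-2, CYCA3-1, CYCB1-5, CYCD2-1, H2B.2, H2B.3, H2B.4, H2B.9 and ORC6).

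The mutant gif1 and wild-type Zhonghua11, a japonica cultivar, each gave 3 Affymetrix arrays, 1 per biological repeat, of total RNA from whole caryopses of the same age. gif1 is a mutant of GRAIN INCOMPLETE FILLING 1, which encodes an invertase of the cell wall that cleaves incoming sucrose. The labels give neither the number of plants or grains in a repeat nor the nature of the allele. The comparison asks which transcripts differ between the genotypes during grain filling. A whole caryopsis holds starchy endosperm, aleurone, embryo and maternal pericarp, so fewer dividing cells and less RNA per cell cannot be told apart in these values.

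Before a cell copies its DNA, the origin recognition complex (ORC) marks the origins, and the MCM2 to MCM7 helicase is loaded there to unwind the double strand. Replication protein A (RPA) coats the exposed single strand, and replication factor C (RFC) opens the sliding clamp PCNA and closes it around DNA so that the polymerases stay bound. New DNA is packed at once on histones, among them H2B, whose genes are switched on mainly in S phase. CDKs with their cyclin partners drive the steps: D-type cyclins respond to sugars and hormones at the entry into the cycle, and A- and B-type cyclins act later, up to mitosis. In cereal grains, cell division in the endosperm is early and gives way to endoreduplication, repeated DNA replication without division, and to storage.

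A level below is the deposited signal, on a linear scale and comparable between arrays for the same probe set but not between probe sets. A difference is gif1 minus wild type on the scale of log2(signal + 17.7), with its standard error (SE) from limma, fitted on all 28597 probe sets whose mean signal reached 74.1. A gene passed when its p, adjusted by Benjamini-Hochberg over all of these, was below 0.05. Means carry the SD of n = 3 arrays. GIF1 itself had means of 155 ± 47.5 in gif1 and 564 ± 119 in wild type (difference -1.77, SE 0.28, limma adjusted p = 0.00254) and was lower on every array labelled gif1 than on any labelled wild type.

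Of the 59 genes, 57 were bright enough to be tested. In gif1 4 of them rose (RFC5, RPA3, H2B.5 and MCM2) and 1 fell (CDKG-2), while 52 did not pass. The share that rose, 7.02%, was close to that of all 15423 genes tested, of which 7.92% rose, 5.63% fell and 13.6% changed in either direction, so the count of rises does not set the members apart from other genes. The members' median difference was 0.17, against 0.03 for all genes tested. The subgroups had different medians: 0.34 for the replication genes, 0.23 for the H2B genes and -0.05 for the cyclins and CDKs. A difference above 0 was found for 19 of 26 replication genes (73.1%), all 5 H2B genes and 11 of 26 cyclins and CDKs (42.3%), against 53.0% of all genes. All 3 gif1 arrays lay above all 3 wild-type arrays for 8 replication genes (30.8%), 2 H2B genes and 4 cyclins and CDKs (15.4%), where 20.0% of all genes did so. The reverse order was found for 3 CDKs and for no replication or H2B gene, against 15.5% of all genes.

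**Figure D1:**
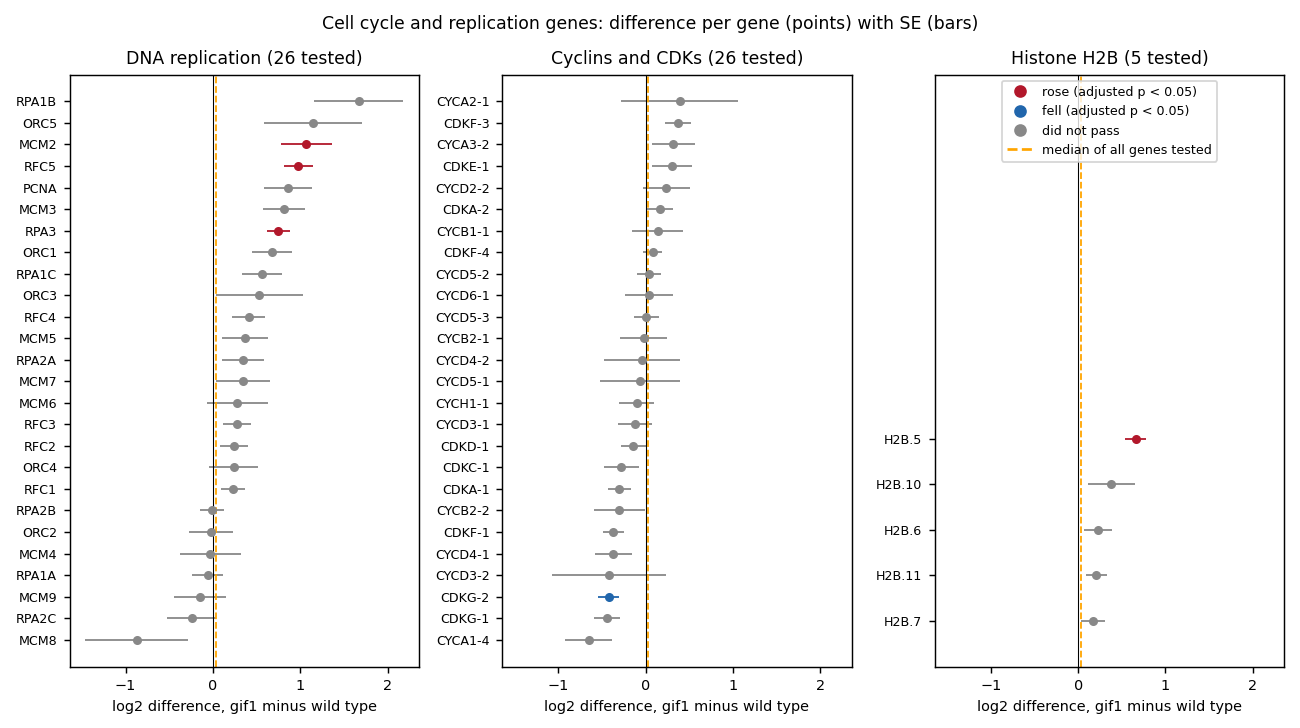
Log2 difference (gif1 minus wild type, x axis) of each tested gene with its SE, in 26 replication genes, 26 cyclins and CDKs and 5 H2B genes. Red points rose, the blue point fell, grey points did not pass, and the dashed line is the median of all genes tested (0.03). The replication genes lie mostly to the right of that line, and the cyclins and CDKs lie on both sides of it.

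Among the clamp loader and single-strand binding genes, RFC5 and RPA3 had the smallest p-values of all members. RFC5, a small subunit of the clamp loader, read 1031.0, 1144.1 and 1195.9 in gif1, against 684.6, 499.2 and 517.5 in wild type. The groups did not overlap, and the gap between them was wider than the spread within either. RFC5 averaged 1124 ± 84.3 in gif1 and 567 ± 102 in wild type, a difference of 0.98 (SE 0.17, limma adjusted p = 0.00478). The other RFC subunits all had positive differences, none of which passed: 0.41 for RFC4 (SE 0.19), 0.28 for RFC3, 0.24 for RFC2 and 0.23 for RFC1, the large subunit. For RFC3 all gif1 arrays were above all wild-type arrays.

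RPA3, the small subunit of replication protein A, read 4054.6, 4631.3 and 4685.7 in gif1, against 2896.6, 2798.9 and 2267.7 in wild type. No gif1 array came near the wild-type range. Its means were 4457 ± 350 in gif1 and 2654 ± 338 in wild type (difference 0.75, SE 0.13, limma adjusted p = 0.00472). Rice has several genes for each of the larger subunits of this complex. None of these passed, and each of their differences below 0 was smaller than its SE. RPA1B, a large subunit, read 627.1, 534.9 and 591.2 in gif1, against 448.8, 189.0 and 51.9 in wild type. The gif1 values were close together and the wild-type values far apart, and the difference of 1.67 (SE 0.51), the highest among the members, did not pass (limma adjusted p = 0.0542). It was 2.32 without wild-type replicate 1 and 0.95 without wild-type replicate 3. RPA1C, a further large-subunit gene, stood at 0.56 (SE 0.23, limma adjusted p = 0.136) with groups that did not overlap, whereas RPA1A stood at -0.06. The middle subunits RPA2A, RPA2B and RPA2C stood at 0.34, -0.01 and -0.24, with none passing.

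MCM2, a subunit of the replicative helicase, rose in gif1. It read 1051.1, 804.8 and 1259.2 in gif1, against 733.9, 516.4 and 281.9 in wild type. The lowest gif1 array was only slightly above the highest wild-type array. The means were 1038 ± 227 in gif1 and 511 ± 226 in wild type (difference 1.07, SE 0.29, limma adjusted p = 0.0360), and of the 6 fits that each leave out 1 array, it passed only in that without wild-type replicate 1 (adjusted p up to 0.140 in the others). MCM3 lay just short of the threshold. It read 362.5, 336.3 and 388.5 in gif1, against 263.5, 172.0 and 172.9 in wild type, without overlap (0.81, SE 0.24, limma adjusted p = 0.0519). The remaining subunits of the same ring differed by 0.37 for MCM5, 0.34 for MCM7, 0.28 for MCM6 and -0.03 for MCM4, each with overlapping groups and an SE of 0.26 to 0.35. MCM8 and MCM9, relatives of the helicase known mainly from recombination and repair, stood at -0.87 (SE 0.59) and -0.15 (SE 0.30). MCM8, the dimmest replication gene, read 16.8, 79.4 and 76.7 in gif1, against 201.9, 69.8 and 82.7 in wild type, so that 1 low gif1 array and 1 high wild-type array set its difference.

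PCNA, the sliding clamp, had high values on all gif1 arrays and on 1 wild-type array. It read 1880.8, 1743.7 and 2234.5 in gif1, against 1819.1, 921.7 and 711.7 in wild type. Wild-type replicate 1 lay inside the gif1 range, and the difference of 0.86 (SE 0.27) did not pass (limma adjusted p = 0.0619). Of the origin recognition genes, ORC1, a nucleotide-binding subunit, read 312.5, 354.8 and 433.5 in gif1, against 254.0, 213.7 and 199.0 in wild type. Its groups did not overlap (0.68, SE 0.23, limma adjusted p = 0.0788). ORC5 stood at 1.15 with an SE of 0.56, ORC3 at 0.53 with an SE of 0.50, ORC4 at 0.24 (its other probe set at -0.44) and ORC2 at -0.02. For ORC5 and ORC3 the wild-type readings ran from 24.4 to 140.5 and from 39.8 to 209.0, the highest in each case on wild-type replicate 1.

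**Figure D2:**
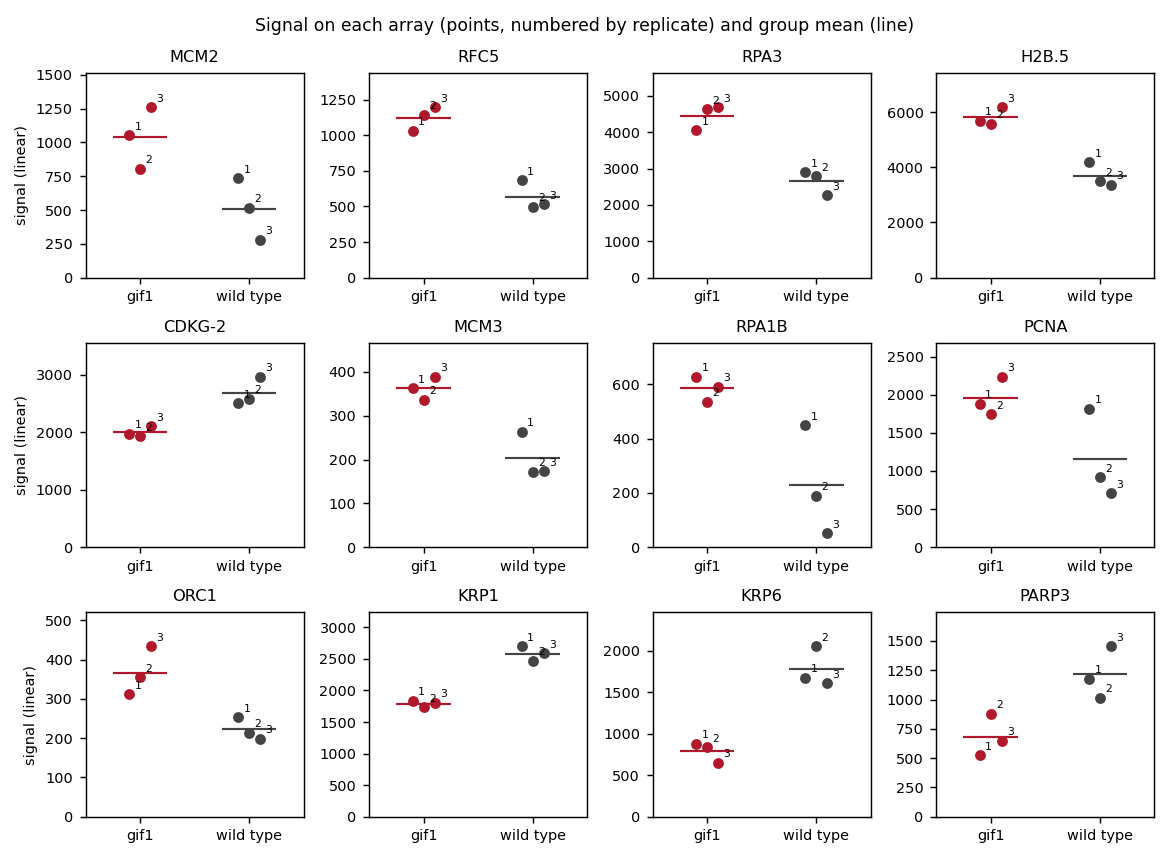
Signal on each array (y axis, linear, starting at 0) for 12 genes, gif1 left and wild type right, with points numbered by replicate and lines at group means. For RFC5, RPA3 and H2B.5 the gif1 points lie well above the wild-type points, for PCNA wild-type replicate 1 lies among the gif1 points, and for CDKG-2, KRP1, KRP6 and PARP3 the gif1 points lie below.

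The wild-type arrays were not alike in the replication genes. With each gene's log2 value centred on its mean over the 6 arrays, the median over the 26 replication genes was 0.17, 0.12 and 0.32 on the gif1 arrays and 0.07, -0.31 and -0.42 on the wild-type arrays, while the same median over all genes lay between -0.03 and 0.03 on every array. Within wild type, replicate 1 held the highest value for 17 of 26 replication genes (65.4%) and replicate 3 the lowest for 15 (57.7%), compared with 35.6% and 36.7% of all genes. The cyclins and CDKs did not share this order: replicate 1 was the highest wild-type array for 11 of 26 and the lowest for 9. Of the 5 H2B genes, replicate 1 was the highest wild-type array for 3 and replicate 3 the lowest for 4. The SD over arrays was larger in wild type for 21 of 26 replication genes (80.8%) and for 64.9% of all genes, with median SDs of 0.19 in gif1 and 0.33 in wild type for the replication genes. On the same wild-type arrays, replicates 1 to 3, the poly-A control RNAs averaged 10.39, 11.79 and 12.02 (log2 signal) and the ribosomal RNA probe sets 11.64, 11.41 and 10.86. Their part in the replication values was not tested.

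The number of calls among the members and among all genes depended on wild-type replicate 1. Without wild-type replicate 1, 9 members rose in gif1 (RFC5, RPA3, H2B.5, MCM2, MCM3, PCNA, RPA1B, ORC5 and H2B.10) and 2 fell (CDKG-2 and CDKF-1), the share that rose was 15.8% against 10.1% of all genes, and the replication median was 0.56. PCNA then differed by 1.24 (limma adjusted p = 0.000837). Leaving out any other single array, gif1 or wild-type, gave 3 rises (RFC5, RPA3 and H2B.5) and no fall. Those rises were 5.26% of the members, against 3.44% to 5.84% of all genes, of which 2.47% to 3.88% fell. The replication median was then 0.27 without wild-type replicate 2, 0.21 without wild-type replicate 3 and 0.29 to 0.38 without a gif1 array. RFC5, RPA3 and H2B.5 passed with each of the 6 arrays left out in turn.

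**Figure D3:**
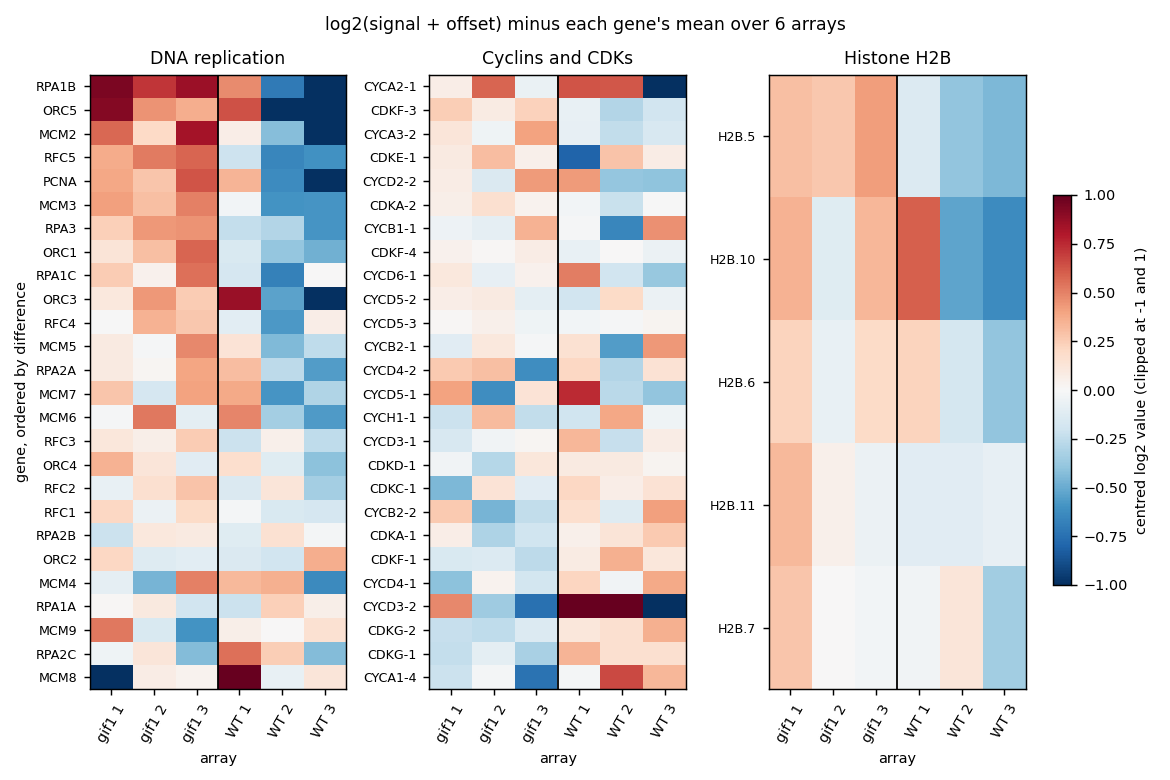
Log2(signal + 17.7) of each tested gene minus that gene's mean over the 6 arrays (colour, clipped at -1 and 1), gif1 arrays left and wild-type (WT) arrays right of the black line, genes ordered by their difference within each subgroup. The upper replication genes are high on all gif1 arrays and low on wild-type replicates 2 and 3, and the wild-type replicate 1 column is of mixed colour.

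Histone H2B, part of the core around which DNA is wound, is made from many near-identical genes. H2B.5 rose: it read 5684.5, 5580.1 and 6171.3 in gif1, against 4189.3, 3501.6 and 3369.3 in wild type. Every gif1 value was well above every wild-type value, with means of 5812 ± 316 in gif1 and 3687 ± 440 in wild type (0.66, SE 0.12, limma adjusted p = 0.00579). H2B.11, the brightest H2B probe set, read 8059.3, 6653.7 and 6169.4 in gif1, against 5952.5, 5937.6 and 6064.6 in wild type. Its groups were separated by a narrow gap, and the difference of 0.21 (SE 0.12) did not pass (limma adjusted p = 0.280). H2B.6 read 3931.4, 3198.6 and 3843.7 in gif1, against 3923.1, 2983.8 and 2561.1 in wild type (0.23, SE 0.16). H2B.10, the dimmest, read 2974.5, 2148.8 and 2949.1 in gif1, against 3541.3, 1613.0 and 1500.3 in wild type (0.38, SE 0.27). Both overlapped through wild-type replicate 1, which was within or above the gif1 range. H2B.7 stood at 0.17 (SE 0.14). H2B.10, H2B.7, H2B.6 and H2B.5 follow each other on chromosome 1 at 6, 3 and 2 places apart in RefSeq's gene order, while H2B.11 lies elsewhere on that chromosome. The probe set of H2B.7 is of a type (_x_at) that can bind related transcripts. Whether the H2B probe sets share transcripts was not tested.

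Among CDKs, the only call was a fall. CDKG-2, of a plant CDK class linked to RNA splicing and meiosis in Arabidopsis, read 1971.4, 1933.6 and 2102.1 in gif1, against 2503.0, 2585.5 and 2962.9 in wild type. The groups did not overlap (means 2002 ± 88.4 in gif1 and 2684 ± 245 in wild type, difference -0.42, SE 0.12, limma adjusted p = 0.0493). Its other probe sets stood at -0.83 and -1.67 and did not pass (limma adjusted p = 0.114 and 0.0584), also with all gif1 arrays below. The call lay at the threshold: with 1 array left out at a time it passed only in the fit without wild-type replicate 1 (adjusted p up to 0.150 otherwise), and scaling to the hybridization spikes gave a difference of 0.09. CDKG-1 read 726.7, 800.9 and 682.4 in gif1, against 1093.8, 960.8 and 959.5 in wild type (-0.44, SE 0.15, limma adjusted p = 0.0825), and its dim other probe set stood at 0.26. CDKF-1 read 3041.5, 3067.8 and 2814.9 in gif1, against 3577.7, 4335.6 and 3655.0 in wild type (-0.37, SE 0.12, limma adjusted p = 0.0700). Both had all gif1 arrays below all wild-type arrays and did not pass.

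CDKA-1, the brightest of the cyclin and CDK genes and a counterpart of yeast cdc2, which acts throughout the cycle, read 4185.6, 3228.4 and 3481.6 in gif1, against 4152.2, 4382.3 and 4799.3 in wild type, with 1 gif1 array inside the wild-type range (-0.30, SE 0.13, limma adjusted p = 0.155). CDKA-2 stood at 0.17 in its brightest probe set and at 0.60 and 0.22 in the others, none passing. The remaining CDKs were CDKF-3 at 0.37, CDKE-1, a kinase of the transcription machinery, at 0.30, CDKF-4 at 0.08, CDKD-1, which activates other CDKs, at -0.14, and CDKC-1, which acts on RNA polymerase II, at -0.28. The groups did not overlap for CDKF-3 and CDKF-4. The limma SE of CDKF-4, 0.11, exceeded its difference, although its own arrays lay close together (log2 SD 0.03 in gif1 and 0.04 in wild type). The other probe sets of CDKE-1 and CDKF-4 had the opposite sign (-0.22 and -0.17). Without wild-type replicate 1, its lowest array, CDKE-1 stood at -0.03. B-type CDKs, the plant kinases of mitosis, are not covered by the naming rule. The probe set of CDKB2-1, looked up after the values were seen, read 327.0, 434.8 and 515.6 in gif1, against 175.9, 253.2 and 340.1 in wild type, and did not pass (0.72, SE 0.27, limma adjusted p = 0.109).

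No cyclin passed. The 6 tested A- and B-type cyclins, which act in S phase and mitosis, had a median difference of 0.06, from -0.65 for CYCA1-4 (SE 0.27, limma adjusted p = 0.143) to 0.39 for CYCA2-1 (SE 0.67). Between these lay CYCA3-2 at 0.32, CYCB1-1 at 0.14, CYCB2-1 at -0.02 and CYCB2-2 at -0.30 (its other probe set at 0.05). CYCB1-1, a widely used marker of cells in G2 and mitosis, read 297.4, 288.7 and 398.0 in gif1, against 307.0, 189.6 and 430.5 in wild type. The wild-type values enclosed those of gif1, and the 95% interval of the difference ran from -0.49 to 0.77. The 9 D-type cyclins, partners of CDKA at the entry into the cycle, had a median of -0.04 and no separated groups. They were CYCD2-2 (0.24), CYCD5-2 (0.04), CYCD6-1 (0.04), CYCD5-3 (0.01), CYCD4-2 (-0.04), CYCD5-1 (-0.06), CYCD3-1 (-0.12), CYCD4-1 (-0.37) and CYCD3-2 (-0.42). The narrowest interval among the cyclins was that of CYCD5-2, from -0.26 to 0.33, and for CYCD3-2 it ran from -1.85 to 1.01, so that for such dim cyclins large changes in either direction lay within the error of 3 arrays a group. CYCH1-1, partner of the CDK-activating kinase, stood at -0.10.

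A pair of cyclin genes was too dim to be tested. CYCF2-2, the dimmest member, read 6.7, 2.5 and 13.4 in gif1, against 10.1, 70.1 and 48.8 in wild type. CYCB1-3 read 43.8, 22.6 and 100.4 in gif1, against 16.7, 10.9 and 191.5 in wild type. Both overlapped between the groups. CYCA2-1, with a mean just above the limit, read 80.8, 122.8 and 72.0 in gif1, against 127.8, 126.7 and 8.5 in wild type.

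Other genes of the pathway were taken by name: CDK inhibitors, retinoblastoma proteins, polymerase subunits, flap endonucleases, the centromeric histone and repair genes. All 19 were tested, 3 fell in gif1 and none rose, where 5.63% of all genes fell and 7.92% rose, and their median was -0.03. Of the CDK inhibitors of the KRP class (Kip-related proteins, which bind CDKs and hold the cycle back), KRP6 read 877.3, 839.3 and 650.0 in gif1, against 1672.4, 2050.2 and 1607.6 in wild type. The means were 789 ± 122 in gif1 and 1777 ± 239 in wild type, the groups were far apart (-1.16, SE 0.16, limma adjusted p = 0.00157), and the call held with each array left out. KRP1 read 1840.7, 1731.4 and 1805.7 in gif1, against 2697.7, 2468.8 and 2587.9 in wild type (-0.52, SE 0.12, limma adjusted p = 0.0164). The other inhibitors did not pass: KRP5 at 0.46 (with gif1 above wild type on all arrays), KRP4 at 0.20, SMR1 at -0.12 and EL2 at -0.19. PARP3, a poly(ADP-ribose) polymerase by name, read 524.3, 879.7 and 647.7 in gif1, against 1179.8, 1015.5 and 1454.1 in wild type (-0.83, SE 0.21, limma adjusted p = 0.0245). KRP1 did not pass in limma without any 1 of the gif1 arrays (adjusted p up to 0.0683), and PARP3 did not pass without gif1 replicate 1, gif1 replicate 3 or wild-type replicate 3 (highest adjusted p = 0.102).

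The polymerase delta subunits OspolD1 and OspolD2 (0.26 and 0.34) and the flap endonucleases FEN1A and FEN1B (0.37 and 0.21), which work with PCNA on the lagging strand, had positive differences that did not pass. The retinoblastoma genes OsRBR1 and OsRBR2, which restrain entry into S phase, stood at 0.08 and 0.17, and the CDK subunit CKS1 at -0.03. The centromeric histone CenH3 stood at -0.56 (SE 0.22, limma adjusted p = 0.123) and the meiotic mismatch repair gene MSH5 at -0.40, with gif1 below wild type on all arrays for both. MUS81, PARP1 and RSS1 lay between -0.17 and 0.07.

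Scaling set the zero of all these differences. Array medians were taken over 57194 probe sets, including those too dim to be tested. Centring the arrays on them moved the median of all genes tested to 0.36, and scaling to the spikes moved it to 0.52. Relative to all genes the replication median stayed at 0.31 and 0.30, that of H2B at 0.20 and 0.22, and that of the cyclins and CDKs at -0.08 and -0.13. The members that rose became 17 and 28, with 26.9% and 45.4% of all genes rising, and none fell. RFC5, RPA3, H2B.5 and MCM2 rose and KRP6 fell under both scalings and under quantile normalization, while KRP1 (-0.19 and -0.02), PARP3 (-0.49 and -0.33) and CDKG-2 (-0.08 and 0.09) did not pass with median centring and spike scaling. When the variance model had no trend with intensity, RFC5 was the only member to pass, with an adjusted p = 0.0482 in limma, with 1.72% of all genes then rising.

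**Figure D4:**
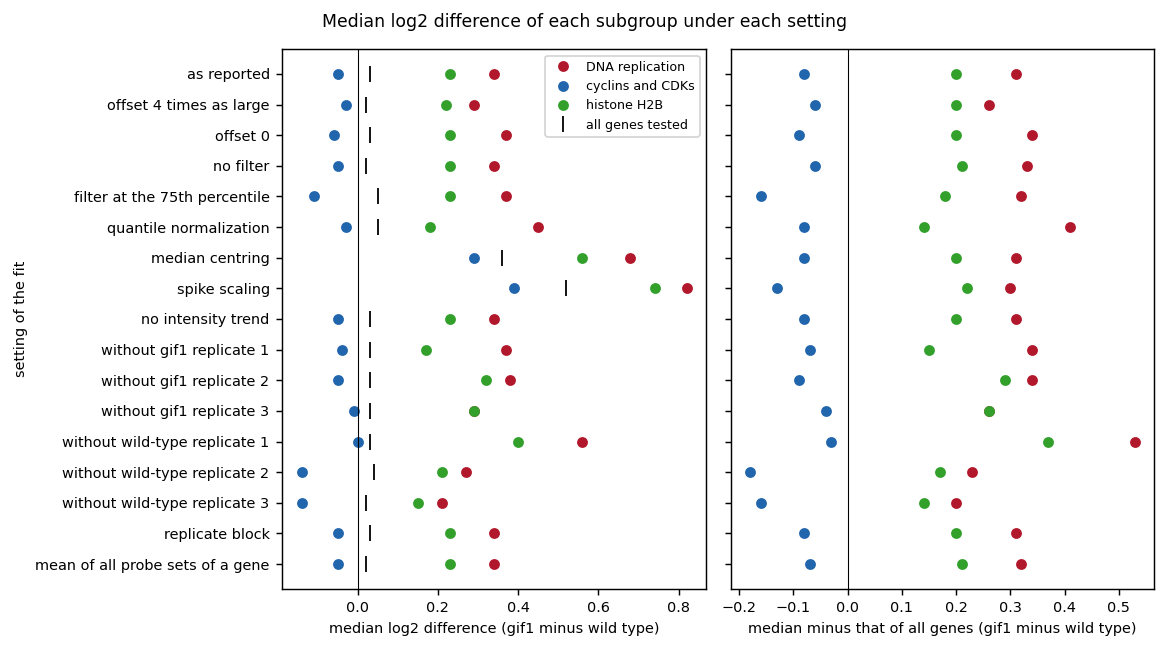
Median log2 difference (gif1 minus wild type, x axis) of the replication, cyclin and CDK, and H2B genes under each setting of the fit (y axis), as such on the left with that of all genes as a black tick, and after subtracting the median of all genes on the right. The replication median exceeds that of all genes by 0.20 to 0.53 under every setting shown, and the cyclin and CDK median is below it by 0.03 to 0.18.

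Other measures moved with the genotype on the same arrays. For the marker lists too, 7.92% of all genes rose and 5.63% fell. GluB-1, GluC-1, CAB1R and RAB16A were planned as markers but matched no gene with a probe set of its own. The probe sets of GLUA-1, GLUA-2, RAG2, Wx and RBCS end in _s_at or _x_at and can bind related transcripts. Of 5 green pericarp markers 4 rose (RBCS, rca, PSAH and PETE). The remaining one, CAB2R, had the opposite sign and did not pass: it read 40011.3, 36852.8 and 35235.4 in gif1, against 46052.1, 43143.4 and 44125.7 in wild type, without overlap (-0.25, SE 0.09, limma adjusted p = 0.106). The summed signal of the 5, which its brightest probe sets dominate, was 93789 to 114891 in gif1 and 74776 to 79974 in wild type. All 6 starchy endosperm markers fell, with sums of 278928 to 313824 in gif1 and 403849 to 532242 in wild type. Of 5 aleurone and embryo markers 3 fell, 1 (OSH1, a homeobox gene of the shoot meristem) rose and 1 did not pass. Their sums were 18868 to 21052 in gif1 and 45168 to 80596 in wild type. Emp1 and rab25, which fell, dominate these sums, so the rise of OSH1 does not show in them. No marker was at 0. OSH1 read 1075.5, 860.1 and 1219.4 in gif1, against 761.4, 592.0 and 345.6 in wild type. The poly-A controls were lower by 2.24 (log2) in gif1, the ribosomal RNA probe sets by 1.06 and the median signal by 0.41. The part of these measures in the differences of the replication and cell cycle genes was not tested.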

How the data were processed

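Each array's deposited value for a probe set is a linear intensity, which the authors made with GCOS 1.4 according to the submitters' processing notes. Settings for background, summarization and scaling are not given in the sources used here. On every array the mean after trimming 2% at each end was 500. After leaving out 187 control probe sets, values were transformed to log2(signal + 17.7), with the 25th percentile of the signals as offset, which understates changes of dim genes. Genotype was tested with limma 3.58.1 in R 4.3.3 (lmFit, eBayes with an intensity trend) on 28597 probe sets with at least the median mean signal (74.1). The fit was also run on simulated arrays with independent noise for each probe set. That run cannot show how calls behave when many genes shift together on an array. Symbols came from the platform annotation and the RefSeq table for ASM3414082v1, which held the gene of each of the 22436 single-gene probe sets. The arrays' build is not given, so no coordinates are printed. Synonyms are partly shared: the gene named CYCB1-3 also carries CYCB1-1, and ORC5 also carries OsORC1. Of the members 11 have several probe sets, and those ending in _x_at or _s_at (CDKA-1, CDKA-2, H2B.7, MCM8, MCM9, ORC4) can bind related transcripts.

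Members, lists, tests and alternatives were chosen with earlier results of these data known. Array values are given for members and pathway genes that passed, for the 2 lowest p-values that missed in each subgroup and for its brightest and dimmest member. Those of PCNA, ORC1, CYCB1-1, CYCB1-3, CYCA2-1, CDKB2-1, CAB2R and OSH1 were added after the values were seen. From the pathway names, the homeobox genes OSH1 and OSH3 and a sucrose synthase once named RSS1 were dropped, since they matched by name alone. The promoter motif search was not done, and sequences were not used here. p-values rest on the spread between these arrays, whose number limits the precision. limma draws the variance of each gene toward a trend with intensity over all probe sets tested. An SE can therefore differ from the spread of the gene's own arrays. Replicate numbers did not pair the arrays.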

Additional observations from a re-analysis of the deposited data

How the results depend on the processing

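RFC5, RPA3 and H2B.5 passed under all settings tried except that RPA3 and H2B.5 missed without the intensity trend (adjusted p = 0.0634 and 0.0702). The 4 rises became 17 with median centring, 28 with spike scaling and 1 without the trend. The share of all genes that rose was then 26.9%, 45.4% and 1.72%. The 1 fall became 0 with an offset of 0, no filter, median centring, spike scaling, no trend or the replicate block. Under those settings 1.22% to 5.38% of all genes fell. It became 2 with the filter at the 75th percentile, which left 31 members, or with quantile normalization, where 7.96% and 5.17% of all genes fell. Median centring and spike scaling moved the median difference of all members to 0.51 and 0.68, of replication genes to 0.68 and 0.82, of cyclins and CDKs to 0.29 and 0.39, and of H2B genes to 0.56 and 0.74. Leaving out single arrays gave 3 to 9 rises and 0 to 2 falls, while 3.44% to 10.1% of all genes rose and 2.47% to 6.91% fell. The medians were 0.09 to 0.21 (all), 0.21 to 0.56 (replication), -0.14 to 0 (cyclins and CDKs) and 0.15 to 0.40 (H2B). Spike scaling turned CDKG-2 to 0.09 and, from near 0, RPA2B to 0.50 and CKS1 to 0.47. GIF1 passed under every setting that tested it. With the replicate number as a block, 5 members rose (RPA1B in addition, limma adjusted p = 0.0318) and CDKG-2 was lost (0.0730). The rises were 8.77% of the members, against 6.58% of all genes. Same-numbered arrays correlated at -0.034, 0.022 and -0.047 in their deviations from the group means, so the numbers were not taken as pairs. The cause of these changes was not tested. Signals near the offset, as for CYCF2-2, carry little information.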
